A study of Homo sapiens with 18 samples.

Results

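Axon guidance ligands and receptors were followed at the RNA level in A375 cells, an established human melanoma line, after knockout of TADA2B, a subunit of the SAGA chromatin-modifying complex, and after SOX10 was overexpressed, a factor that binds DNA and specifies neural crest cells and melanocytes. The members were chosen by symbol, with earlier results of these data known: semaphorins of classes 3 to 7, plexins, EPH receptors, ephrins, ROBO receptors, SLIT ligands, netrins, the netrin receptors DCC and UNC5, and reelin, where the gene was protein-coding and autosomal. This gave 65 members of 58721 gene identifiers in the count table, or of 19019 autosomal protein-coding genes. They comprised 20 semaphorins, 14 EPH receptors, 7 ephrins, 7 plexins, 5 netrin receptors, 4 ROBO receptors, 4 netrins, 3 SLIT ligands and reelin. EFNB1, PLXNA3 and PLXNB3 match the same symbols but lie on chromosome X and are not members.

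There were 6 groups of 3 libraries, all of A375 cells carrying a guide RNA. Control cells carried a guide against GFP, a jellyfish gene that the cells lack, and are given as wild type in the labels. A second group carried the GFP guide and overexpressed SOX10. TADA2B was knocked out with 2 guides, sg1 and sg2 (guide 1 and guide 2 here), and each knockout line was profiled without and with SOX10 overexpression. No group with an empty vector is labelled. The SOX10 construct, its delivery, and whether the lines are pools or single clones are not described in the sources used here. Libraries are numbered within each group, with no word on whether separate cultures were used, so the spread that the p-values rest on is that between these samples and may be technical.

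Guidance ligands steer migrating cells and growing axons by attracting or repelling them. Semaphorins act through plexins, with neuropilins as co-receptors for most class 3 members. Ephrins are bound to the membrane and signal to EPH receptor tyrosine kinases on the neighbouring cell, A-type ephrins being held by a lipid anchor and B-type ephrins spanning the membrane. SLIT proteins repel through ROBO receptors, netrins act through DCC and UNC5 receptors, and reelin signals through the lipoprotein receptors VLDLR and LRP8 to the adaptor DAB1. Melanocytes arise from the neural crest, whose migrating cells read several of these cues.

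Total counts ran from 58573910 to 79874237 per library. TADA2B transcripts were still present in every library, at 32.8, 32.2 and 32.5 CPM (counts scaled to a common library size) in control cells, 26.1, 25.6 and 26.4 with guide 1 and 28.6, 27.5 and 30.2 with guide 2. With SOX10 they were at 30.7, 30.7 and 31.7 CPM in control cells, 23.9, 26.8 and 25.3 in guide 1 and 27.4, 25.7 and 27.6 in guide 2. With scaling by library size alone the means were 30.3, 26.9 and 30.0 CPM, so the lower level with guide 2 rested on the scaling, and a guide need not lower the transcript that it cuts. SOX10 was at 358, 341 and 364 CPM in control cells, 87.0, 82.6 and 81.2 with guide 1 and 46.1, 39.9 and 44.1 with guide 2. Overexpression brought SOX10 to 451, 453 and 454 CPM in control cells, 281, 286 and 307 in the guide 1 line and 248, 251 and 240.5 in the guide 2 line. All SOX10 libraries of the knockout lines therefore lay below the control libraries, and above those of the same line without the construct. Counts per gene do not separate reads of the construct from those of the cells' own SOX10 gene. Since the construct is not described, these levels do not give its dose. Of 11 melanoma lineage markers (10 tested), 3 were higher and 7 lower in the knockout, beside 28.6% and 29.5% of all genes tested. With library-size scaling 3 were higher and 6 lower, where 9112 of all 21060 genes were higher and 3545 lower. In control cells MCAM was at 239.8 CPM, CSPG4 at 211, MITF at 39.7 and S100B at 14.2. With the guides MCAM stood at 192 and 180 CPM, CSPG4 at 121 and 99.0 and S100B at 2.94 and 1.37. MITF, which rose, stood at 84.3 and 92.1 CPM with the guides. The pigment genes were low in control cells: TYR at 0.0150, TYRP1 at 0.0955, PMEL at 0.411, DCT at 1.01 and MLANA at 1.16 CPM. With SOX10 in control cells 6 lineage markers, SOX10 among them, were higher and 1 lower (17.3% and 17.2% of all genes). DCT then stood at 156 CPM in control cells and at 22.8 and 6.59 in the guide lines with SOX10. The part of these markers in the members' changes was not tested. The second library of guide 2 stood further from its group than other libraries did, with a chi-square per degree of freedom of 11.8 and 10.4 against its group.

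Of the 65 members, 54 had enough reads to be tested. The 11 others were DCC, EFNA2, EPHA8, EPHA10, NTN3, NTN5, SEMA4A, SEMA5B, SEMA6D, SLIT1 and UNC5A, and none of them exceeded 16 counts in any library. EPHA10, NTN5 and SEMA5B had at most 3 counts in every library. Among the tested members, levels per kilobase of exon in control cells ran from 0.00367 for PLXNA4 to 59.0 for EPHA2, in CPM per kilobase. EPHA2, an EPH receptor that binds A-type ephrins, led with a mean over all 18 libraries of 63.7 CPM per kilobase. Next came the secreted semaphorin SEMA3C at 20.4, the ephrin-A receptor EPHA3 at 18.3, PLXNB2 (a receptor for class 4 semaphorins) at 12.1, the membrane-anchored SEMA7A at 9.42 and SEMA3B at 9.08 CPM per kilobase. Apart from the netrin receptors, each family with several members held high and low ones, as the plot of levels in control cells shows. UNC5D was the highest netrin receptor there, at 0.349 CPM per kilobase.

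**Figure D1:**
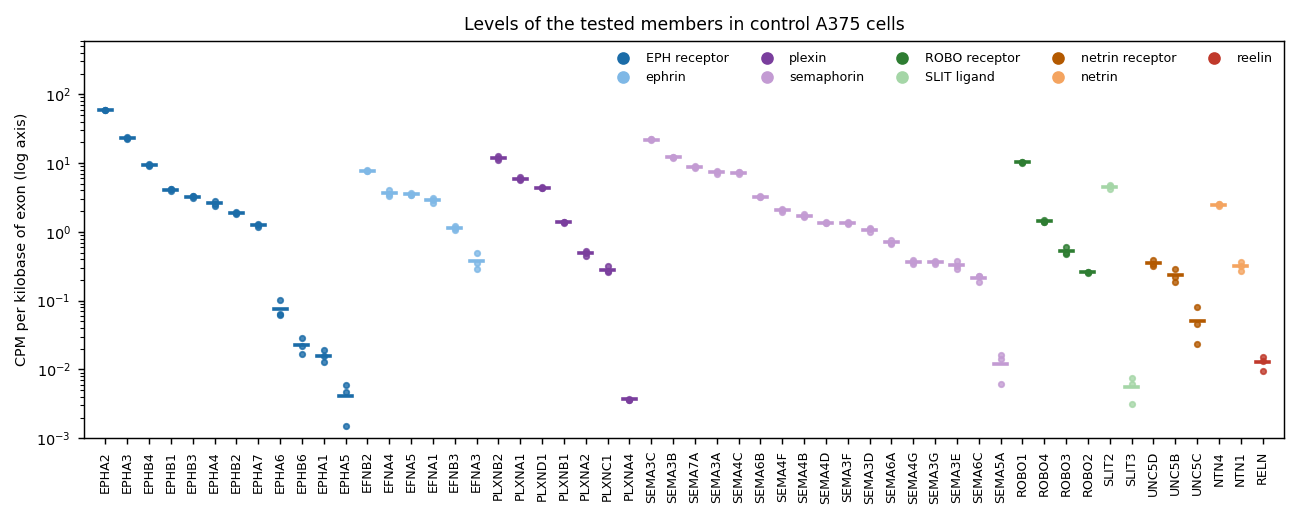
Level of each of the 54 tested members in control A375 cells, in CPM per kilobase of exon on a log axis, with points for the 3 libraries, a line for their mean and colours for the families. EPHA2 stands highest at 59.0 CPM per kilobase, and EPHA5, PLXNA4, SLIT3 and SEMA5A are among the lowest.

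Knockout of TADA2B moved guidance genes in both directions. Large rises started at low levels (RELN, EPHA5, PLXNA4, EPHB6) or at moderate ones (PLXNA2, SEMA3F). Large falls started at moderate levels (EPHB3, EPHB1, SLIT2) or at lower ones (NTN1, ROBO2). Averaged over the guides, 26 of the 54 members were higher and 22 lower at an adjusted p under 0.05 in edgeR's quasi-likelihood test. Over all 21060 genes tested, 28.6% were higher and 29.5% lower. At least 2-fold changes were found for 9 higher and 9 lower members, 33.3% of those tested, beside 15.0% of all genes. The median absolute log2 change was 0.601 over the members and 0.284 over all genes, and the median signed change was 0.166 and −0.009. With guide 1 alone, 25 members were higher and 19 lower (26.2% and 26.4% of all genes), and with guide 2 alone 22 were higher and 22 lower (27.9% and 28.1%). The guides share their control libraries. Scaling by library size in place of trimmed-mean (TMM) scaling raised the median change of all genes by 0.155. The members then split into 30 higher and 19 lower for the mean of the guides, where 9112 of all 21060 genes were higher and 3545 lower. For guide 2 they split into 28 higher and 19 lower, where 8874 of all genes were higher and 3478 lower. The 14 members named for this comparison held their direction and their call under both scalings.

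**Figure D2:**
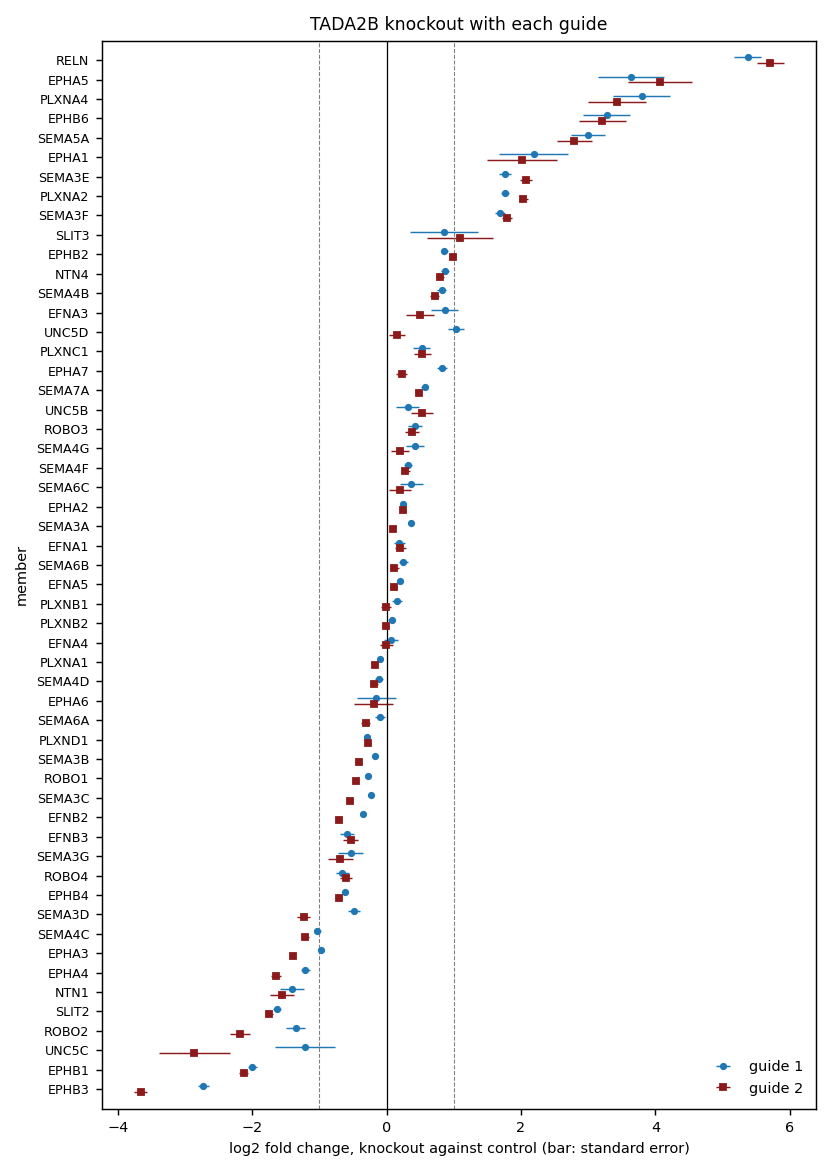
Log2 fold change of each tested member in TADA2B knockout against control, for guide 1 (circles) and guide 2 (squares), with bars of 1 standard error and dashed lines at 2-fold. RELN lies furthest to the right at 5.37 and 5.71, EPHB3 furthest to the left at −2.73 and −3.66, and both guides share the same control libraries.

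Among the EPH receptors, 6 of 12 tested rose and 5 fell with the knockout. EPHB3, a receptor for B-type ephrins (hg38 chromosome 3, 184561784 to 184582409), fell most. Its control libraries stood at 14.3, 14.9 and 15.0 CPM, those of guide 1 at 2.11, 2.48 and 2.08 and those of guide 2 at 1.17, 1.09 and 1.22. The 3 groups did not overlap, guide 2 lying below guide 1. EPHB3 fell by 3.20 log2 units for the mean of the guides (SE 0.07, adjusted p = 1.69e-33), and the difference of −0.93 between the guides also passed the test (SE 0.11, adjusted p = 2.11e-08). Whether fewer cells expressed a gene or each cell held less of its RNA cannot be told apart in these bulk libraries, here and for all members. With SOX10, EPHB3 reached 10.3, 10.9 and 10.6 CPM in the guide 1 line and 7.21, 6.88 and 6.41 in the guide 2 line, above all libraries of the lines without SOX10 and below all control libraries. In control cells SOX10 took it to 18.1, 16.9 and 17.4 CPM. The rise was 2.40 log2 units in knockout cells and 0.24 in control cells, and the difference of 2.16 passed the test (SE 0.09, adjusted p = 8.31e-22).

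EPHA4, a receptor for both ephrin types (hg38 chromosome 2, 221418027 to 221574202), fell and came back with SOX10. It was at 21.0, 18.2 and 19.5 CPM in control cells, 8.79, 8.20 and 8.41 with guide 1 and 6.58, 5.71 and 6.37 with guide 2. With SOX10 it was at 17.1, 17.6 and 19.2 CPM in control cells, 21.6, 22.6 and 23.4 in guide 1 and 22.1, 23.8 and 25.5 in guide 2. The knockout libraries without SOX10 lay below all others, and those with SOX10 lay above every control library. EPHA4 fell by 1.43 log2 units with the knockout (SE 0.06, adjusted p = 3.18e-24) and rose by 1.67 with SOX10 in knockout cells (SE 0.05, adjusted p = 2.83e-29), while its change with SOX10 in control cells was −0.12 (SE 0.06, adjusted p = 0.135). The difference between the SOX10 effects was 1.79 (SE 0.08, adjusted p = 1.15e-21).

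EPHB1, a further ephrin-B receptor (hg38 chromosome 3, 134597801 to 135260467), fell with the knockout and regained little with SOX10. Its libraries stood at 29.4, 29.6 and 27.0 CPM in control cells, 7.71, 6.82 and 6.98 with guide 1 and 6.46, 6.67 and 6.55 with guide 2. With SOX10 they stood at 25.1, 24.4 and 23.6 CPM in control cells, 10.5, 11.5 and 10.8 in guide 1 and 9.69, 10.8 and 10.9 in guide 2. The knockout lines did not reach control levels under either condition. EPHB1 fell by 2.06 log2 units with the knockout (SE 0.05, adjusted p = 2.91e-31), and knockout cells with SOX10 still differed from control by −1.42 (SE 0.05, adjusted p = 9.53e-26). EPHA3, an ephrin-A receptor, was at 155 ± 4.88 CPM in control cells, 79.0 ± 1.32 with guide 1 and 58.8 ± 2.48 with guide 2 (SD, n = 3 libraries for all values given this way). SOX10 raised EPHA3 in both settings, by 0.57 log2 units in control cells to 231 ± 2.74 CPM and by 0.59 in knockout cells. The difference of 0.02 did not pass the test (SE 0.04, adjusted p = 0.723).

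EPHB6 and EPHB2 moved the other way. EPHB6, an EPH family member with an inactive kinase domain, was at 0.0894, 0.119 and 0.154 CPM in control cells, 1.33, 1.14 and 1.07 with guide 1 and 1.17, 1.17 and 1.05 with guide 2. SOX10 libraries held 0.0136, 0.134 and 0.0588 CPM in control cells, 0.0517, 0.156 and 0.0943 in guide 1 and 0.110, 0.137 and 0.181 in guide 2. Only the knockout lines without SOX10 exceeded 1 CPM. EPHB6 rose by 3.24 log2 units with the knockout (SE 0.32, adjusted p = 1.71e-11) and fell by 3.26 with SOX10 in knockout cells (SE 0.24, adjusted p = 3.3e-15). Its interaction of −2.48 (SE 0.63, adjusted p = 0.00177) rested on the control cells with SOX10, of which replicate 1 had 1 count: without replicate 2 of that group it was −1.54 with an adjusted p of 0.187.

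EPHB2, an active ephrin-B receptor, was at 23.0, 23.8 and 24.0 CPM in control cells, 44.3, 42.7 and 41.0 with guide 1 and 47.1, 44.2 and 48.2 with guide 2. SOX10 left it at 22.5, 22.3 and 20.9 CPM in control cells and took it to 17.7, 18.2 and 17.7 in guide 1 and 18.4, 17.7 and 15.6 in guide 2. The knockout libraries were thus the highest without SOX10 and the lowest with it. EPHB2 fell by 1.34 log2 units with SOX10 in knockout cells (SE 0.04, adjusted p = 2.78e-30), its change in control cells was −0.11 (SE 0.05, adjusted p = 0.116), and the difference was −1.24 (SE 0.06, adjusted p = 1.33e-19). EPHA7, another ephrin-A receptor, stood at 9.35 ± 0.381 CPM in control cells, 16.6 ± 0.461 with guide 1 and 10.9 ± 0.553 with guide 2. SOX10 lowered EPHA7 to 5.40 ± 0.443 CPM in control cells, 6.38 ± 0.708 in guide 1 and 5.25 ± 0.161 in guide 2, with log2 changes of −0.79 without and −1.22 with the knockout. EPHA6, whose knockout change of −0.17 did not pass the test (adjusted p = 0.584), rose by 1.89 log2 units in knockout cells (SE 0.18, adjusted p = 2.91e-12), to 1.62 ± 0.255 and 1.51 ± 0.406 CPM.

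EPHA2, the highest member, had the highest level per kilobase in all 6 groups. It was at 243, 247 and 246 CPM in control cells, 178, 178 and 187 with SOX10, 296, 285 and 289 with guide 1 and 301, 273 and 299.6 with guide 2. SOX10 lowered it in control cells, with a log2 change of −0.44 (SE 0.04, adjusted p = 1.42e-12) and its change in knockout cells was 0.00 (SE 0.02, adjusted p = 0.992), a tested difference of 0.44 (SE 0.04, adjusted p = 2.79e-10). EPHA1 and EPHA5, singled out after their values were seen because they stay under 1 CPM, rose with the knockout from 0.0750 ± 0.0140 to 0.348 ± 0.0829 and 0.307 ± 0.0966 CPM and from 0.0401 ± 0.0228 to 0.521 ± 0.0785 and 0.701 ± 0.193 CPM. With SOX10 the knockout lines held 0.259 and 0.213 CPM of EPHA5. EPHA1 had at most 35 counts in any library and shares 82 exon bases with ZYX on the opposite strand. ZYX held 5617 to 8225 counts, so the level of EPHA1 is uncertain.

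The largest knockout change among the 6 tested ephrin ligands was 0.68 on the log2 scale, for EFNA3. EFNA1, EFNA3 and EFNA5 were higher, EFNB2 and EFNB3 lower, and EFNA4 was called in no comparison. The call of EFNA1 was lost without control replicate 1 (adjusted p = 0.158). The B-type EFNB2, singled out after its values were seen, stood at 38.7, 39.6 and 38.9 CPM in control cells, 30.2, 30.6 and 30.8 with guide 1 and 24.2, 23.9 and 23.8 with guide 2. SOX10 brought it to 34.3, 32.4 and 33.2 CPM in control cells, 42.3, 43.5 and 43.3 in guide 1 and 38.2, 39.3 and 40.8 in guide 2. It thus moved in opposite directions, by −0.23 in control cells and 0.61 in knockout cells on the log2 scale, with an interaction of 0.84 (SE 0.05, adjusted p = 1.05e-17). EFNB3 rose with SOX10 in control cells from 3.66 ± 0.278 to 5.36 ± 0.114 CPM, by 0.55 log2 units (SE 0.10, adjusted p = 2.7e-05), and in knockout cells by 0.43. An antisense gene shares 26.2% of the exon bases of EFNB2 and held 0 to 11 counts per library. A readthrough transcript with 0 counts shares 44.7% of EFNA3, and how reads of such overlaps were assigned is not given in the sources used here.

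The promoters of 4 members are shown because they carried the largest rise (RELN) and 3 of the largest falls or reversals (EPHB3, EPHA4, EPHB1). Each run is the 250 bases before a RefSeq start on the gene's own strand, read 5′ to 3′ from RefSeq's GRCh38.p14 entries. Capitals mark ACAATG, one of a pair of 6-letter words (ACAAAG and ACAATG, searched on both strands) that SOX factors can bind. RELN is at chr7:103989659-103989908, minus strand, EPHB3 at chr3:184561535-184561784, plus strand, EPHA4 at chr2:221574203-221574452, minus strand, and EPHB1 at chr3:134795010-134795259, plus strand. A second RefSeq entry of EPHA4, at chr2:221572305-221572554, has a GC share of 78.0% and holds neither word. The EPHB1 start lies 197459 bases inside the gene as GENCODE 29 draws it.
RELN: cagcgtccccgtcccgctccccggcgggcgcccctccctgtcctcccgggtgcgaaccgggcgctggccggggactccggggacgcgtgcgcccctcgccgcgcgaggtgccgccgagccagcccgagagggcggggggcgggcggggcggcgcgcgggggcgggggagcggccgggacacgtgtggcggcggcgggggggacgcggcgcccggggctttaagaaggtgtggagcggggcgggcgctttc
EPHB3: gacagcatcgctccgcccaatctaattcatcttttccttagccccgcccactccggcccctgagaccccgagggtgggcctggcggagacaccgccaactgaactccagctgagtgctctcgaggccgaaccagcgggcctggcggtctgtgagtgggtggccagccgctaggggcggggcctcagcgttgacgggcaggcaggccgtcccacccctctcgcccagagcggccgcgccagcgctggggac
EPHA4: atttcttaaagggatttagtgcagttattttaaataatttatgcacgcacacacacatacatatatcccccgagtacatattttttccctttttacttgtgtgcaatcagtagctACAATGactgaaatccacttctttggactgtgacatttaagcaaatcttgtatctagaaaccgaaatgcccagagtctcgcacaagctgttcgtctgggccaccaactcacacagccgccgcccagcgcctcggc
EPHB1: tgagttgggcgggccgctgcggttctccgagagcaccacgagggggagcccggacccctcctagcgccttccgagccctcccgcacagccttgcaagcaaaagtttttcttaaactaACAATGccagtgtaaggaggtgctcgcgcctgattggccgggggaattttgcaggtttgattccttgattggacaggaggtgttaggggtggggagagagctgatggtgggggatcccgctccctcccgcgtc
The word ACAATG begins at position −135 in EPHA4 and −133 in EPHB1, counted back from the start, and neither word is in these windows of RELN and EPHB3. GC made up 83.2% of the RELN window, 70.0% of EPHB3, 60.8% of EPHB1 and 43.2% of EPHA4. Entries were found for 56 members (88 starts), and 11.4% of these 88 held ACAAAG or ACAATG, against 21.2% of all 35116 promoters. The AP-1 word TGANTCA was in 1.14% of the members' entries and 6.57% of all. Median GC was 65.4% over the members' entries and 58.0% over all, and the shares are descriptions of letters only.

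Semaphorins were the most numerous family, with 9 of 17 tested higher and 7 lower in the knockout. With library-size scaling 10 were higher and 5 lower, SEMA4D and SEMA6A losing their calls and SEMA6C gaining one. That scaling called 9112 of all 21060 genes higher and 3545 lower. SEMA3F, a secreted class 3 semaphorin that acts through neuropilin 2 (hg38 chromosome 3, 50155045 to 50189075), was at 6.65, 6.23 and 6.42 CPM in control cells, 21.8, 21.7 and 18.9 with guide 1 and 23.8, 20.4 and 22.8 with guide 2. With SOX10 it was at 2.74, 3.09 and 2.59 CPM in control cells, 5.70, 5.80 and 5.98 in guide 1 and 6.33, 6.93 and 6.90 in guide 2. SOX10 thus lowered it in both settings, and the knockout lines with SOX10 overlapped the control libraries. SEMA3F rose by 1.74 log2 units with the knockout (SE 0.07, adjusted p = 1.4e-24), and fell by 1.19 with SOX10 in control cells (SE 0.09, adjusted p = 1.25e-14) and by 1.78 in knockout cells (SE 0.05, adjusted p = 6e-29). The SOX10 effects differed by −0.59 (SE 0.10, adjusted p = 1.58e-05). NRP2, which encodes neuropilin 2, was at 132 CPM in control cells and 72.0 and 60.7 with the guides.

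SEMA3E, which signals through plexin D1, rose with the knockout and with SOX10 in control cells. Its libraries were at 3.17, 2.46 and 2.67 CPM in control cells, 6.51, 6.73 and 6.94 with SOX10, 9.86, 8.89 and 9.41 with guide 1 and 11.2, 12.1 and 11.6 with guide 2. In knockout cells with SOX10 they were at 10.1, 9.13 and 9.57 CPM for guide 1 and 11.4, 11.2 and 11.8 for guide 2, overlapping the same lines without SOX10. SEMA3E rose by 1.92 log2 units with the knockout (SE 0.08, adjusted p = 1.04e-23) and rose by 1.28 with SOX10 in control cells (SE 0.09, adjusted p = 1.55e-15). In knockout cells its SOX10 change was 0.00 (SE 0.05, adjusted p = 0.964), and the difference was −1.27 (SE 0.10, adjusted p = 2.44e-13). Its receptor PLXND1, singled out after its values were seen, was at 42.5, 42.6 and 43.6 CPM in control cells, 35.0, 34.9 and 35.6 with guide 1 and 37.9, 32.2 and 36.2 with guide 2. SOX10 raised PLXND1 to 58.3, 59.9 and 59.9 CPM in control cells, 91.2, 96.5 and 104 in guide 1 and 105, 101 and 104 in guide 2, so that the knockout lines were lowest without SOX10 and highest with it. The rise was 0.47 log2 units in control cells and 1.50 in knockout cells, a difference of 1.03 (SE 0.05, adjusted p = 3.93e-19).

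SEMA6A, a transmembrane semaphorin, rose with SOX10 in control and in knockout cells. It was at 8.32, 7.53 and 7.36 CPM in control cells, 7.53, 7.09 and 7.11 with guide 1 and 6.78, 6.27 and 5.63 with guide 2. With SOX10 it was at 19.6, 19.7 and 18.5 CPM in control cells, 20.2, 20.8 and 18.8 in guide 1 and 19.9, 20.0 and 18.8 in guide 2. All 9 libraries with SOX10 lay above all 9 without it. SEMA6A rose by 1.31 log2 units in control cells (SE 0.07, adjusted p = 8.54e-20) and rose by 1.56 in knockout cells (SE 0.05, adjusted p = 3.78e-28). SEMA5A, a transmembrane semaphorin with thrombospondin repeats, rose with each change from 0.146 ± 0.0632 CPM in control cells to 0.316 ± 0.0338 with SOX10, 1.17 ± 0.113 and 1.02 ± 0.117 with the guides, and 2.67 ± 0.0838 and 3.50 ± 0.543 with guide and SOX10. The knockout lines with SOX10 were 4.38 log2 units above control (SE 0.21, adjusted p = 4.24e-21), the largest rise of any member in that comparison. Its rise with SOX10 in control cells lost the call without control replicate 2 (adjusted p = 0.0679). Its interaction of 0.38 did not pass the test (SE 0.36, adjusted p = 0.474).

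SEMA3A and SEMA3C, both secreted, went apart with SOX10 in control cells. SEMA3A was at 70.9, 70.6 and 65.7 CPM in control cells and 31.4, 30.6 and 32.7 with SOX10, and fell by 1.13 log2 units (SE 0.04, adjusted p = 3.37e-25). SEMA3C was at 135, 139 and 139 CPM in control cells and 212, 207 and 212 with SOX10, and rose by 0.61 log2 units (SE 0.04, adjusted p = 1.09e-12). SEMA3C was the only member higher with SOX10 in control cells and lower with it in knockout cells, with a log2 change of −0.11 for the mean of the guides (interaction −0.72, adjusted p = 4.25e-12). That mean joined unlike lines: guide 1 went from 118 ± 4.86 to 134 ± 6.59 CPM with SOX10, and guide 2 from 94.8 ± 6.34 to 70.9 ± 4.13. SEMA3A, SEMA3C, SEMA3D and SEMA3E lie between positions 80742538 and 85186855 of hg38 chromosome 7 on the same strand. With SOX10 in control cells SEMA3A and SEMA3D (−0.95) fell and SEMA3C and SEMA3E rose.

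SEMA4C, a transmembrane class 4 semaphorin, was lower in the knockout lines without and with SOX10. It was at 45.7, 45.2 and 43.2 CPM in control cells, 23.1, 21.4 and 20.9 with guide 1 and 20.1, 17.5 and 20.4 with guide 2, and fell by 1.12 log2 units (SE 0.04, adjusted p = 2.37e-24). With SOX10 the knockout lines held 23.2 ± 0.896 and 20.4 ± 0.857 CPM, a change of 0.08 (SE 0.04, adjusted p = 0.0707). SEMA7A was higher with the guides, at 49.1 ± 1.67 and 46.3 ± 1.64 CPM against 33.2 ± 1.06 in control cells. SOX10 lowered SEMA7A, with log2 changes of −0.36 without and −0.67 with the knockout (interaction −0.31, adjusted p = 2.75e-05). SEMA3B fell with SOX10 in control and in knockout cells, from 70.1 ± 1.38 CPM in control cells to 46.5 ± 1.43 with SOX10 and to 45.0 ± 1.20 and 37.5 ± 0.521 in the knockout lines with SOX10. SEMA4G shares 22.3% of its exon bases with MRPL43 on the opposite strand, which held 2059 to 3797 counts, so its level is uncertain.

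Of the 7 plexins, 3 rose and 2 fell in the knockout. With library-size scaling, which called 9112 of all 21060 genes higher and 3545 lower, 5 rose and 1 fell. PLXNA1 was then no longer lower, and PLXNB1 and PLXNB2 were higher. PLXNA2, a receptor for class 6 and, with neuropilins, class 3 semaphorins, was at 6.78, 7.27 and 6.21 CPM in control cells, 23.7, 22.4 and 22.7 with guide 1 and 29.8, 25.8 and 27.2 with guide 2. It rose by 1.90 log2 units (SE 0.06, adjusted p = 4.46e-28). SOX10 lowered it to 4.31 ± 0.0919 CPM in control cells, 15.1 ± 0.605 in guide 1 and 19.6 ± 0.396 in guide 2, with log2 changes of −0.65 and −0.55 in control and knockout cells, with an interaction of 0.10 (SE 0.09, adjusted p = 0.433). The knockout lines with SOX10 kept PLXNA2 above all control libraries. PLXNA4, noted after its values were seen, rose with the knockout from 0.0596, 0.0593 and 0.0615 CPM to 0.972, 0.859 and 0.740 with guide 1 and 0.790, 0.605 and 0.589 with guide 2. With SOX10 no library of any group exceeded 0.1 CPM of PLXNA4. PLXNB2, the plexin with the highest level per kilobase, was called in no comparison with TMM scaling and ranged from 84.6 to 92.2 CPM over the group means.

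**Figure D3:**
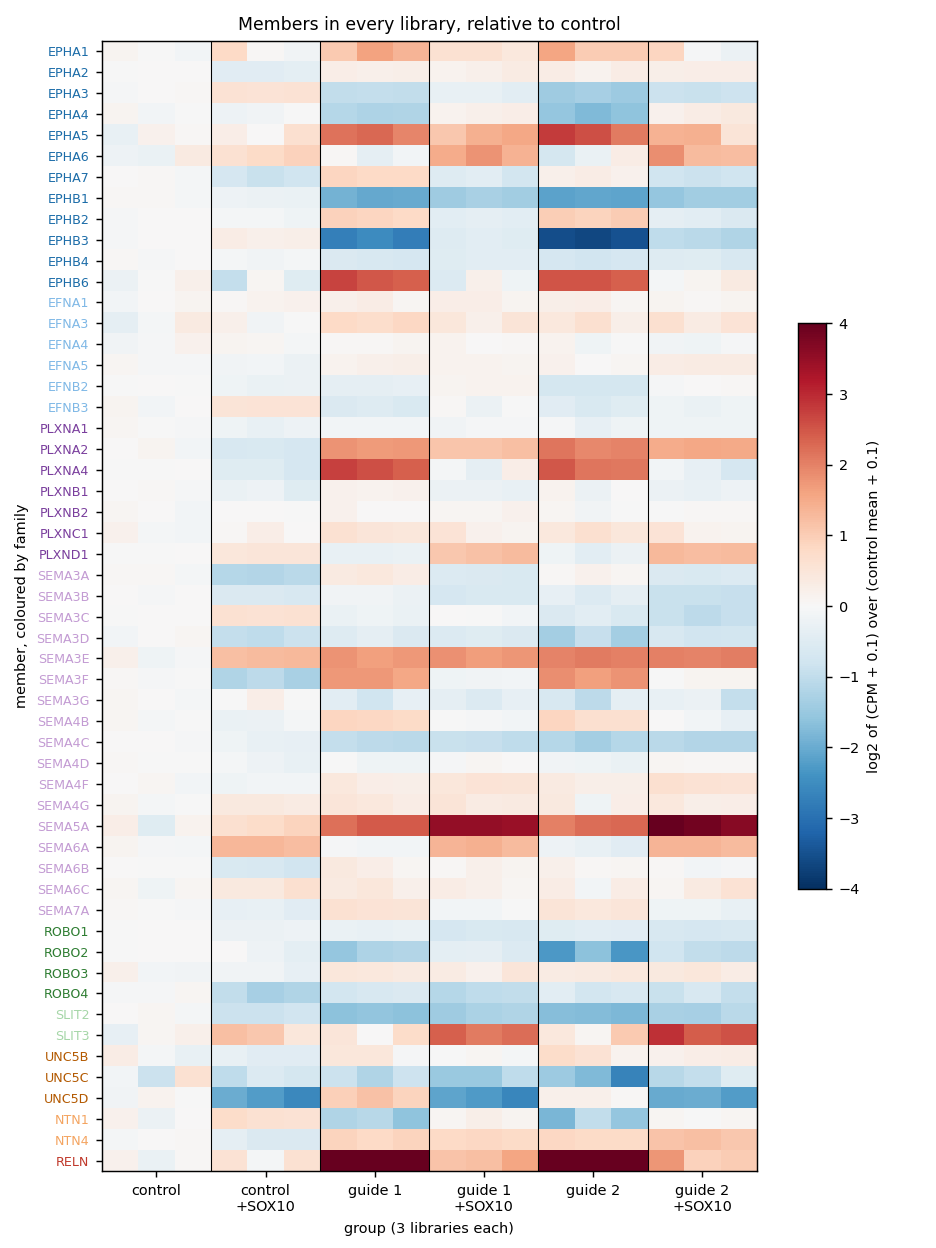
Heatmap of the 54 tested members (rows, coloured by family) in all 18 libraries (columns, in groups of 3), as log2 of CPM plus 0.1 over the control mean plus 0.1. Red is higher and blue lower than control, colours stop at 4 in either direction, and the 3 libraries of a group show the same colours for most members, with RELN the darkest red in both knockout lines without SOX10 and SEMA5A in the guide 2 line with SOX10.

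In the SLIT and ROBO families, the ligand SLIT2 and the receptor ROBO2 fell in the knockout. SLIT2, a secreted repellent, was at 44.5, 46.1 and 41.2 CPM in control cells, 13.9, 14.6 and 14.1 with guide 1 and 13.3, 13.1 and 12.7 with guide 2. SOX10 took it down to 24.1, 24.1 and 25.6 CPM in control cells and up to 16.4, 18.4 and 19.0 in guide 1 and 18.0, 17.5 and 20.7 in guide 2. All groups stayed below control. SLIT2 fell by 1.69 log2 units with the knockout (SE 0.05, adjusted p = 2.91e-29), and its SOX10 changes, −0.84 without and 0.43 with the knockout, differed by 1.26 (SE 0.07, adjusted p = 2.53e-18). SLIT3 was scarce, at 0.0804 ± 0.0323 CPM in control cells, and SOX10 raised it to 0.248 ± 0.0885 there and to 0.753 ± 0.0888 and 1.03 ± 0.220 in the knockout lines. Its SOX10 change was 1.61 in control cells (SE 0.47, adjusted p = 0.0054) and 2.46 in knockout cells (SE 0.24, adjusted p = 1.66e-11), and the difference did not pass the test (adjusted p = 0.289).

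ROBO2 was at 4.25, 4.30 and 4.33 CPM in control cells, 1.42, 1.79 and 1.83 with guide 1 and 0.802, 1.30 and 0.770 with guide 2. Its SOX10 libraries were at 4.31, 3.71 and 3.28 CPM in control cells, 3.29, 3.35 and 2.91 in guide 1 and 2.43, 2.13 and 2.04 in guide 2. The guide 2 libraries lay below those of guide 1 in either condition, and all knockout libraries without SOX10 lay below all with it. ROBO2 fell by 1.77 log2 units with the knockout (SE 0.12, adjusted p = 2.27e-16), and SOX10 raised it by 1.07 in knockout cells (SE 0.11, adjusted p = 1.82e-11) against −0.19 in control cells (SE 0.13, adjusted p = 0.29). ROBO1, the receptor with the highest level of the family, fell with either change, from 111 ± 1.23 CPM in control cells to 95.0 ± 1.38 with SOX10, 91.3 ± 1.14 with guide 1 and 81.2 ± 1.22 with guide 2. ROBO4, better known from vessels, went from 9.63, 9.71 and 10.6 CPM in control cells to 4.95, 3.95 and 4.26 with SOX10, 5.93, 6.32 and 6.67 with guide 1 and 7.36, 5.99 and 6.30 with guide 2. ROBO4 fell by 1.18 log2 units with SOX10 in control cells (SE 0.10, adjusted p = 1.63e-13). Its neighbour ROBO3, which lies on the other strand (hg38 chromosome 11, ROBO3 from 124865386 to 124881470 and ROBO4 from 124883691 to 124898500), rose by 0.40 with the knockout (SE 0.09, adjusted p = 0.00026) while ROBO4 fell by 0.63 (SE 0.08, adjusted p = 4.46e-09).

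Netrin 1 fell with the knockout and overlapped control cells again with SOX10. NTN1, the classical bifunctional netrin, was at 2.31, 1.71 and 2.04 CPM in control cells, 0.819, 0.887 and 0.590 with guide 1 and 0.491, 0.973 and 0.625 with guide 2. After SOX10 overexpression it stood at 3.40, 3.15 and 3.07 CPM in control cells, 2.16, 2.39 and 2.18 in guide 1 and 2.13, 1.98 and 2.12 in guide 2. The knockout lines with SOX10 overlapped the control libraries (0.10, adjusted p = 0.574). NTN1 fell by 1.48 log2 units with the knockout (SE 0.15, adjusted p = 3.18e-11) and rose with SOX10 by 0.67 in control cells (SE 0.15, adjusted p = 0.000541) and 1.58 in knockout cells (SE 0.13, adjusted p = 3.38e-14). NTN4, the other tested netrin, rose with the knockout and stood at 10.3 ± 0.457 CPM without it, 18.8 ± 0.678 with guide 1 and 17.8 ± 0.419 with guide 2. The netrin receptor DCC had at most 16 counts in any library and was not tested.

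UNC5D, a repulsive netrin receptor, had the largest fall among the named members with SOX10 in control cells. It was at 3.41, 4.18 and 3.73 CPM in control cells, 7.44, 8.66 and 7.01 with guide 1 and 4.38, 4.34 and 3.88 with guide 2. With SOX10 it was at 0.873, 0.725 and 0.544 CPM in control cells, 0.789, 0.702 and 0.539 in guide 1 and 0.853, 0.888 and 0.723 in guide 2. All 9 libraries with SOX10 lay under 1 CPM and all 9 without it above 3 CPM. UNC5D fell by 2.39 log2 units in control cells (SE 0.15, adjusted p = 8.38e-17) and by 2.92 in knockout cells (SE 0.10, adjusted p = 4.68e-26). The guides differed for it, with a rise of 1.03 with guide 1 (SE 0.12, adjusted p = 6.45e-10), 0.15 with guide 2 (SE 0.12, adjusted p = 0.296), and a difference of −0.88 (SE 0.11, adjusted p = 2.08e-07). UNC5B lay between 1.19 and 2.30 CPM over the group means, and UNC5C below 1 CPM in every library.

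RELN, which encodes the secreted glycoprotein reelin (hg38 chromosome 7, 103471784 to 103989516), had the largest change of any member. Its libraries stood at 0.194, 0.119 and 0.169 CPM in control cells, 6.84, 6.25 and 7.00 with guide 1 and 8.65, 8.35 and 8.44 with guide 2. With SOX10 they stood at 0.286, 0.148 and 0.294 CPM in control cells, 0.479, 0.494 and 0.674 in guide 1 and 0.792, 0.396 and 0.427 in guide 2. The knockout libraries without SOX10 were all above 6 CPM and every other library was below 1 CPM, while the knockout lines with SOX10 still lay above control cells. RELN rose by 5.54 log2 units with the knockout (SE 0.19, adjusted p = 3.35e-26) and fell by 3.77 with SOX10 in knockout cells (SE 0.11, adjusted p = 2.2e-28). In control cells its SOX10 change was 0.58 (SE 0.35, adjusted p = 0.217), and the interaction was −4.36 (SE 0.39, adjusted p = 3.02e-12). DAB1, the intracellular adaptor of reelin signalling, was at 0.411 ± 0.0168 CPM in control cells, 0.0365 and 0.00798 with the guides, 5.30 ± 0.355 with SOX10, and 3.08 ± 0.228 and 1.78 ± 0.171 in the knockout lines with SOX10. The reelin receptor gene VLDLR was at 6.38 CPM in control cells and 5.45 and 4.32 with the guides. With SOX10 it was at 11.05 CPM in control cells and 12.7 and 11.3 in the guide lines. LRP8, the other receptor, was at 141 CPM in control cells and 89.5 and 76.1 with the guides.

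**Figure D4:**
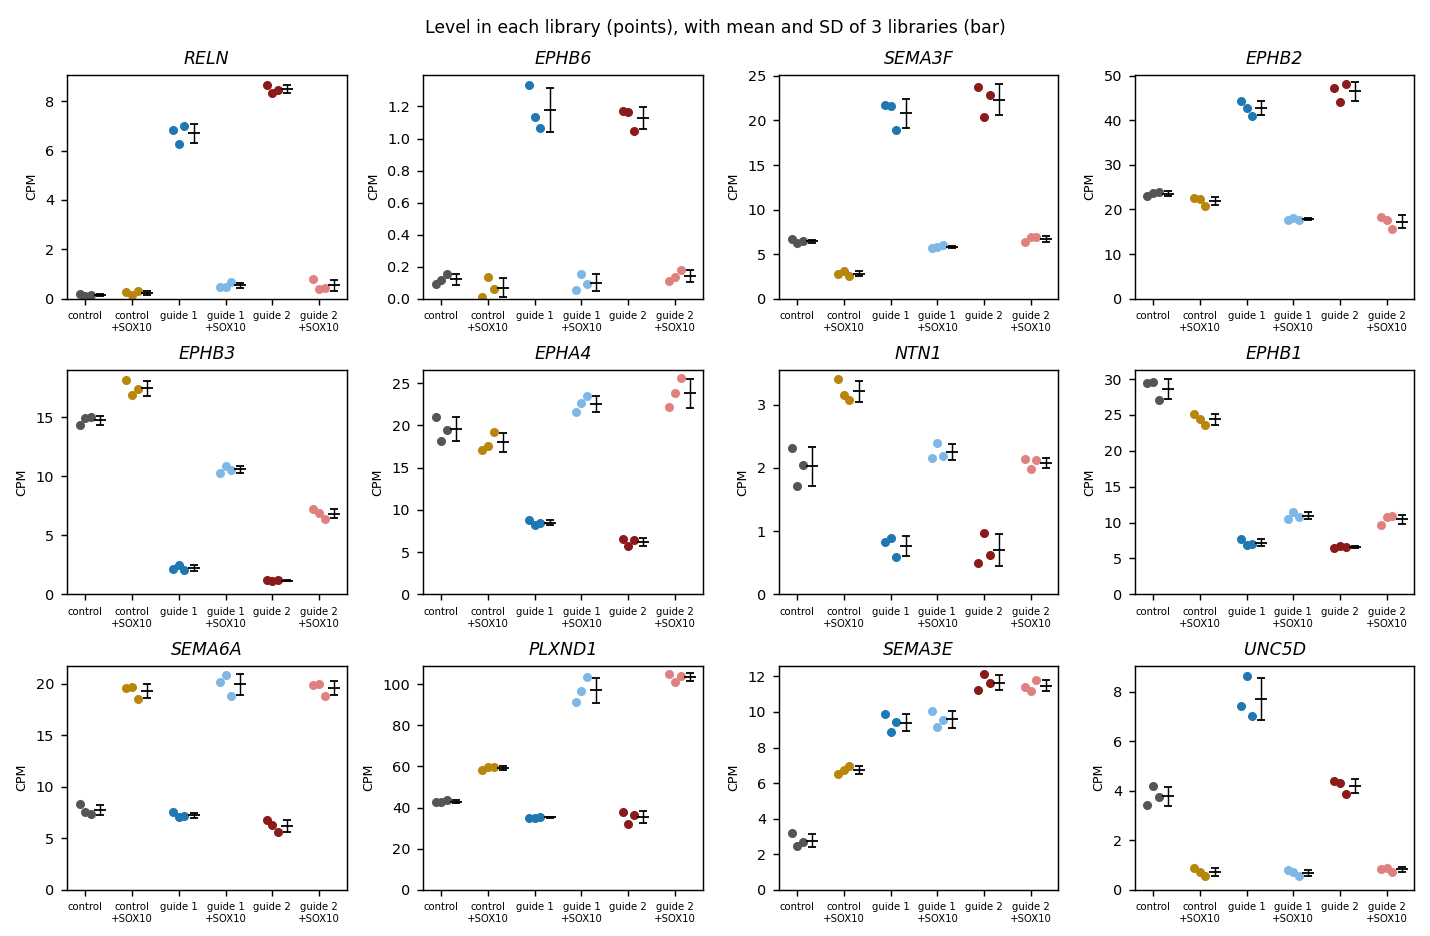
CPM of 12 members in each library (points) by group, with the mean and SD of 3 libraries beside them and axes starting at 0. RELN, EPHB6, SEMA3F and EPHB2 are high in the knockout lines without SOX10, EPHB3, EPHA4, NTN1 and EPHB1 are low there, and SEMA6A and UNC5D separate all libraries with SOX10 from all without it.

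SOX10 overexpression lowered more members than it raised in control cells. There 13 members were higher and 23 lower, where 17.3% of all genes were higher and 17.2% lower, and the median log2 change was −0.169 over the members and −0.008 over all genes. At least 2-fold changes were seen for 4 higher and 5 lower members, 16.7%, beside 6.46% of all genes. In knockout cells, for the mean of the guides, 19 members were higher and 21 lower (28.1% and 28.1% of all genes), and 9 in each direction were at least 2-fold, 33.3% beside 12.0% of all genes. No library enters both comparisons. The same direction was called in both for 9 members upward, among them SEMA6A, EPHA3, NTN1 and SEMA5A, and for 13 downward, among them UNC5D, SEMA3F, SEMA3A and PLXNA2. Lower in control cells and higher in knockout cells were 6 members: EFNB2, EPHB1, NTN4, SEMA3D, SEMA4D and SLIT2. The shares of all genes with these joint patterns were not computed, so the counts do not set the members apart from other genes. SEMA4D lost its call in control cells without control replicate 1 and without replicate 3 of control with SOX10 (adjusted p up to 0.1).

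The SOX10 effect itself differed between knockout and control cells for 36 of the 54 members by the test of the interaction. It was more positive in knockout cells for 23 (18.1% of all genes) and more negative for 13 (15.1%). Interactions of at least 2-fold numbered 8 and 6, 25.9% of the members beside 5.95% of all genes. The 6 largest by the naming rule were RELN, EPHB6 and SEMA3E on the negative side, and EPHB3, EPHA4 and SLIT2 on the positive side.

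**Figure D5:**
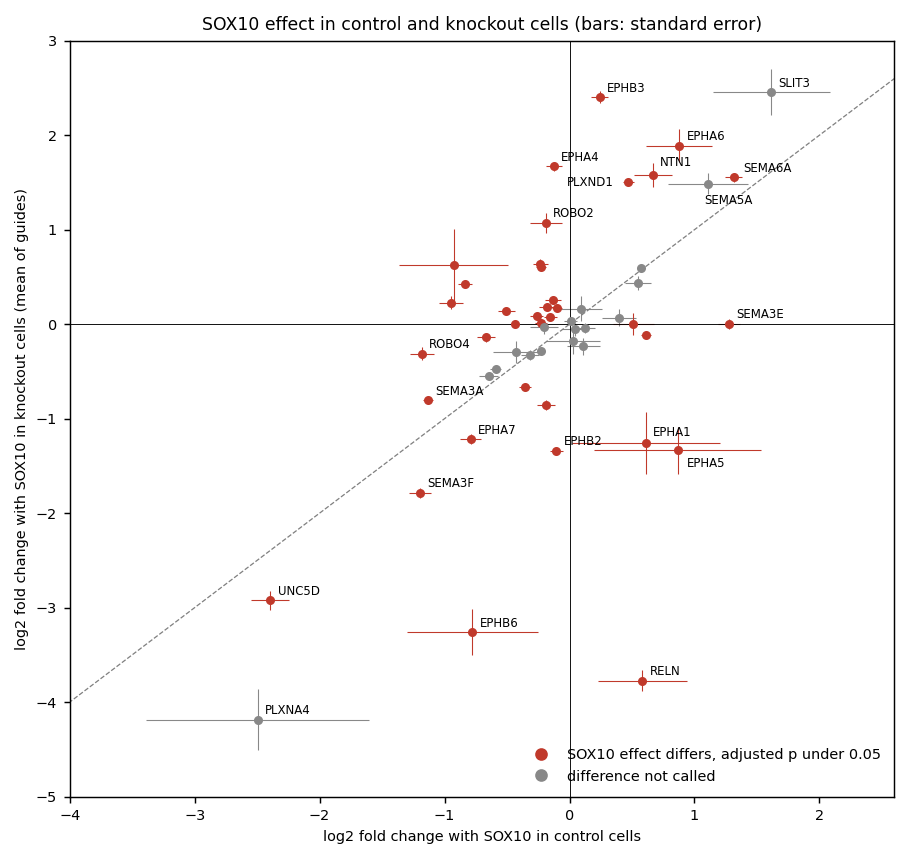
Log2 fold change of each tested member with SOX10 in control cells (x axis) and in knockout cells as the mean of the guides (y axis), with bars of 1 standard error and a dashed line of equal effects. Red points passed the test of the difference, 36 in all, with RELN and EPHB6 far below the line, EPHB3 and EPHA4 far above it, and UNC5D low on both axes.

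Members chosen with one guide were read with SOX10 in the other line, so that no library was used on both sides. SOX10 in the guide 2 line raised 21 members and lowered 18 (24.6% and 24.0% of all genes), and in the guide 1 line it raised 17 and lowered 17 (22.0% and 21.7%). Of the 25 members higher with guide 1, SOX10 in the guide 2 line lowered 13, raised 4 and left 8 uncalled. Of the 19 lower with guide 1, it raised 13, lowered 4 (ROBO1, ROBO4, SEMA3B and SEMA3C) and left 2 uncalled. With library-size scaling SEMA3B and SEMA3C were not called lower with guide 1 (adjusted p = 0.671 and 0.125). In the reverse reading, of the 22 members higher with guide 2, SOX10 in the guide 1 line lowered 12, raised 2 and left 8 uncalled. Of the 22 lower, it raised 13, lowered 3 and left 6 uncalled. The same split over all genes was not computed, so these counts do not set the members apart from other genes.

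Knockout cells with SOX10 were compared with control cells without SOX10 to show how far the members stood from control under both changes. For the mean of the guides, 18 members were higher and 21 lower (30.0% and 27.9% of all genes), and 9 and 5 were at least 2-fold, 25.9% beside 12.6% of all genes. Library-size scaling shifted the median of all genes by 0.147 and gave 24 higher and 17 lower, where 9156 of all 21060 genes were higher and 3295 lower. The members named as highest against control were SEMA5A, SLIT3, SEMA3E, EPHA6, SEMA6A and PLXNA2, from 4.38 to 1.35 on the log2 scale. Those furthest below were UNC5D at −2.33, EPHB1 at −1.42, SLIT2 at −1.26 and SEMA4C at −1.04. The libraries of these 10 members did not overlap with control, as the naming rule requires. EPHB6 and SEMA3F, both raised by the knockout, were at −0.02 (SE 0.40) and −0.04 (SE 0.07) and overlapped with control.

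Between the guides without SOX10, 15 members differed, 2 higher and 13 lower with guide 2, beside 2.65% and 6.09% of all genes. None of the 15 differed 2-fold. EPHB3 (−0.93), UNC5D (−0.88), ROBO2 (−0.83), SEMA3D (−0.75) and EPHA7 (−0.60) were the named ones, all lower with guide 2 on the log2 scale. The 2 higher ones, named here for their small number, were PLXNA2 (0.27) and SEMA3E (0.31). SOX10 itself was lower with guide 2 than with guide 1 (−0.94 on the log2 scale), and whether this bears on the members was not tested.

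Genes of the same pathways that are not members moved too. A list of 22 co-receptors, other receptors and some ligands (21 tested) included the chromosome X genes EFNB1, PLXNA3 and PLXNB3. Of this list, 4 were higher and 16 lower in the knockout, beside 28.6% and 29.5% of all genes. With library-size scaling 4 were higher and 12 lower, where 9112 of all 21060 genes were higher and 3545 lower. The adhesion receptor gene FLRT3 fell from 128 ± 1.63 CPM in control cells to 24.4 ± 1.42 with guide 1 and 10.8 ± 0.669 with guide 2, and with SOX10 the lines held 66.0 and 38.5 CPM. NRP1, the neuropilin that binds SEMA3A, was at 156 ± 2.44 CPM in control cells and 50.1 ± 0.267 with SOX10, and at 49.9 ± 1.15 and 33.6 ± 1.13 in the knockout lines with SOX10. DSCAM had no count in any library. Of 48 cytoplasmic effectors (47 tested), 12 were higher and 29 lower in the knockout (28.6% and 29.5% of all genes). With library-size scaling 16 were higher and 21 lower. With SOX10 in knockout cells 30 effectors were higher and 10 lower (28.1% and 28.1% of all genes). MICAL2, an actin-oxidising enzyme, and ABLIM1, an actin-binding protein, rose in the knockout, unlike most effectors. MICAL2 stood at 7.56 ± 0.883 CPM in control cells, 31.7 ± 0.775 with guide 1 and 36.7 ± 1.25 with guide 2. ABLIM1 stood at 30.2 ± 1.33, 122 ± 2.32 and 139 ± 0.527 CPM in the same order.

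Markers of other cell types were measured beside these results. Summed over 8 endothelial markers, the level was 4.92 to 6.41 CPM in control libraries, 11.4 to 12.1 with SOX10, 5.29 to 6.36 in the guide lines and 31.1 to 38.2 in the guide lines with SOX10. Most of the last came from KDR, at 27.7 and 33.1 CPM, while PECAM1 and CDH5 stayed at or below 1.16 CPM in every group mean. For 10 fibroblast markers the sum was 8.15 to 10.4 CPM in control libraries, 42.0 to 51.8 in the guide lines and 51.6 to 62.1 with SOX10 added. LUM was the highest and COL1A2 under 0.1 CPM. Of 9 tested, 7 were higher and 1 (PDGFRA) lower in the knockout, beside 28.6% and 29.5% of all genes. For 9 epithelial markers the sum was 194 to 195 CPM in control libraries and 363 to 409 in the guide lines. It was mostly KRT18 and KRT8, with CDH1 at no more than 3 counts. Of 7 tested, 6 were higher and 1 (KRT14) lower in the knockout. For 8 neuron markers the sum was 57.1 to 58.5 CPM in control libraries, 80.5 to 91.3 in the guide lines and 68.9 to 73.0 with SOX10 added. Most of it was NEFL, at 40.1 CPM in control cells and 68.6 and 61.5 with the guides, with ELAVL4 and STMN2 near 0. Of 6 tested, 3 were higher and 1 lower in the knockout, the last being TUBB3, at 6.265 CPM in control cells and 4.85 and 4.46 with the guides. The sum of 6 leukocyte markers was at most 21.7 CPM in any library, nearly all of it LYZ. The part of these genes in the members' changes was not tested.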

How the data were processed

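RNA was extracted with RNeasy columns and made into libraries with the KAPA Stranded mRNA-Seq kit, per the labels' protocols. The authors deposited raw counts of reads per gene, and the submitters' processing notes name HISAT2, HTSeq and hg38. Neither tool versions nor the annotation nor the strand setting is given in the sources used here. Thus reads of overlapping genes cannot be told apart. All 58721 identifiers matched GENCODE 29, which gave symbols, positions and exon lengths.

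Genes were filtered with edgeR's filterByExpr (21060 kept) and scaled by TMM, and 6 group means were fitted with edgeR's quasi-likelihood test on 18 libraries (12 residual degrees of freedom, biological coefficient of variation 4.02%). Adjusted p-values are Benjamini-Hochberg over all genes tested, with a threshold of 0.05. Comparisons were the knockout (each guide and their mean), SOX10 in control and in knockout cells, both changes against control, the interaction, and guide 2 against guide 1. CPM values use TMM-scaled library sizes. In the library with the fewest reads, 3 counts correspond to 0.0493 CPM.

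Named members had an adjusted p under 0.05, a log2 change of at least 1 (0.5 where fewer than 4 passed), at least 1 CPM in a compared group and no overlap of libraries (not asked of the interaction), up to 12 per direction for the knockout and 6 elsewhere. The 6 highest per kilobase were added. The members and lists were chosen with earlier results of these data known. Alternatives were library-size and RLE scaling, DESeq2, other filters, fitting only the groups compared, a replicate block, and leaving out each library. Each knockout line alone was added after seeing the data. Of the comparisons, only the knockout was also run on simulated counts, with 200 genes changed. That is far fewer than were called in the data, and the outcome is not given here. Software was R 4.3.3, edgeR 4.0.16, DESeq2 1.42.0, Python 3.11.15, numpy 2.4.6, pandas 2.3.3 and matplotlib 3.10.9.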

Additional observations from a re-analysis of the deposited data

Results flagged for a closer look

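The interaction test called 36 of the 54 members tested, 23 more positive and 13 more negative in knockout cells, beside 18.1% and 15.1% of all 21060 genes. The called differences of the 22 named members among them are given here. Named members were picked for large changes, some of them in this comparison, so their share called is no result. The values are the log2 change with SOX10 in knockout cells minus that in control cells. The EPH receptors with a more positive response in knockout cells were EPHB3 (2.16), EPHA4 (1.795), EPHA6 (1.01), EPHB1 (0.874) and EPHA2 (0.4389), and those with a more negative one were EPHB6 (−2.483), EPHB2 (−1.235) and EPHA7 (−0.4237). Among the other families the difference was positive for SLIT2 (1.264), ROBO2 (1.262), SEMA3D (1.172), NTN1 (0.9114), ROBO4 (0.8729), SEMA4C (0.3448), SEMA3A (0.3213) and SEMA6A (0.2409). It was negative for RELN (−4.358), SEMA3E (−1.275), SEMA3C (−0.7241), SEMA3F (−0.5904), UNC5D (−0.5279) and SEMA7A (−0.3116). The call of UNC5D was lost when any of 7 single libraries was left out: control replicates 1 and 3, replicates 1 and 2 of control with SOX10, guide 1 replicate 2, and replicate 3 of either guide with SOX10 (adjusted p up to 0.245). SEMA6A lost its call with no filter on low counts, without control replicate 1 and without replicate 3 of control with SOX10 (adjusted p up to 0.122), and EPHA6 without control replicate 3 (adjusted p = 0.125). EPHB6 lost it without replicate 2 of control with SOX10 (adjusted p = 0.187). Beside these differences, SOX10 counts rose by 2.15 log2 units in knockout cells and 0.35 in control cells. These counts do not separate the construct from the cells' own gene, and whether SOX10 levels bear on the differences was not tested.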

How the results depend on the processing

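The 8 comparisons' counts of called members stayed within 1.5 times under all 130 alternative counts. Leaving out 1 library at a time gave 44 to 51 members for the knockout (48 with all libraries), 42 to 45 for guide 1 (44), 41 to 44 for guide 2 (44), 33 to 36 for SOX10 in control cells (36), 38 to 41 for SOX10 in knockout cells (40), 37 to 41 for both changes against control (39), 31 to 37 for the interaction (36) and 14 to 19 between the guides (15). DESeq2 gave 48, 44, 44, 35, 40, 40, 36 and 17 in that order. With a library left out the filter on low counts was applied anew, so those counts can include members beyond the 54. Each knockout line alone, an alternative chosen after seeing the data, gave 34 and 39 members for SOX10. Of 950 alternative values of members in the comparisons that named them 1 lost its call, the EPHB6 interaction given in the report, whose adjusted p lay between 0.000163 and 0.00584 under the others. In comparisons that did not name them, calls of UNC5D, SEMA6A, EPHA6, SEMA5A, SEMA3B, SEMA3C and other members were lost under some alternatives, as stated beside those printed.

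With the replicate block the counts were 48, 44, 44, 38, 41, 39, 36 and 17. Same-numbered libraries showed no strong shared deviation, with correlations of −0.0295 to 0.0711 over 45 pairs (median 0.00572). Pairs with unlike numbers had −0.109 to 0.0775 over 90 pairs (median −0.00525). These correlations cannot exclude that libraries of the same number were handled together. Members near 3 counts, such as PLXNA4 with SOX10, are limited by depth.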
